A study of Mus musculus with 3 samples.

Results

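The AP-1 transcription factors are 10 genes in the mouse data examined here: Jun, Junb and Jund of the Jun subfamily, Fos, Fosb, Fosl1 and Fosl2 of the Fos subfamily, and Batf, Batf2 and Batf3 of the Batf subfamily. They were found by gene symbol among the 55536 genes of GENCODE annotation M21, 1 gene per symbol, and all 10 were present. The material was polyadenylated RNA of regulatory T cells (Tregs), which depend on the transcription factor Foxp3 and hold other immune cells in check. The cells were primary Tregs that had been through inflammation, which the labels also describe as activated Tregs, taken from mouse material of 12 weeks of age. There was 1 group of 3 libraries, labelled technical replicates 1 to 3 of 1 biological replicate. No control Tregs were analysed here, and the strain, the inflammatory treatment, the sorting gate and any pooling of animals are not named in the labels.

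AP-1 factors are basic leucine zipper (bZIP) proteins, which bind DNA as dimers joined by their zippers. Jun proteins can pair with each other, with Fos proteins and with Batf proteins, whereas Fos proteins need a partner of another subfamily. Fos, Fosb, Jun and Junb belong to the immediate early response, in which T cell receptor signals acting through MAP kinases switch them on briefly. Batf proteins lack the activation domains of Fos, pair with Jun proteins and bind composite DNA elements together with Irf4 or Irf8. In T cells Batf is known for its role in Th17 cells and in effector Tregs of non-lymphoid tissues, and Junb is likewise known as a partner of Batf in these cells.

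The libraries held 35652707, 31665170 and 37810591 expected counts in libraries 1, 2 and 3. Levels are given as TPM, a transcript abundance corrected for gene length and scaled to a fixed total per library, and errors are standard deviations (SD) over the 3 libraries. Since nothing says that the libraries came from separate cells or animals, the SD and the p-values measure the spread between these libraries, which may be technical. All 6 Treg markers examined (Foxp3, Cd4, Cd3e, Il2ra, Ikzf2 and Ctla4) reached 1 TPM in every library, and Foxp3 had 98.1, 98.4 and 96.5 TPM. Library 3 stood apart in salivary gland transcripts: 8 gland markers summed to 4.72, 11.0 and 55157.8 TPM in libraries 1, 2 and 3. Myeloid markers summed to at most 3.49 TPM in any library, and none of the 8 was detected in all 3. Cd14 and Fcgr1 were at 0, whereas Lyz2 had 1.43, 0.73 and 1.93 TPM. CD8 T cell markers summed to 19.4, 26.5 and 16.9 TPM, and 1 of the 2, Cd8b1, was detected in all 3 libraries. Red cell markers summed to 10.2, 23.2 and 15.5 TPM (2 of 3 detected), and stroma markers to 69.75, 83.8 and 71.3 TPM (1 of 3). NK cell markers summed to at most 3.13 TPM, with 1 of 3 detected. In bulk RNA a smaller number of expressing cells and less RNA per cell cannot be told apart.

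Promoter sequences were taken from RefSeq (GRCm38.p6, the assembly also called mm10), which listed 8 of the 10 genes; Fosl1 and Batf2 were not matched. The sequences shown are those of Fos, Jun and Junb, which were highest in library 3, and of Batf, which was highest in library 1, since the comparison of libraries turns on these genes. Each is the coding strand read 5′ to 3′ and ends at the base before the annotated start. Capitals mark matches to the searched motifs. Fos lies at chr12:85473640-85473889 (plus strand), Jun at chr4:95052223-95052472 (minus strand), Junb at chr8:84978749-84978998 (minus strand) and Batf at chr12:85686470-85686668 (plus strand, cut 51 bases short of the RefSeq start, where the M21 gene begins).
Fos: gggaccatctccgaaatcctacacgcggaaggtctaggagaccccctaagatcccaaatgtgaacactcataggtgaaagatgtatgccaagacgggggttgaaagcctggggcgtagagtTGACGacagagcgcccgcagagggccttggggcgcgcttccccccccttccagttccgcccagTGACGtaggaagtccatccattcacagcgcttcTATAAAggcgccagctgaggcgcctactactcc
Jun: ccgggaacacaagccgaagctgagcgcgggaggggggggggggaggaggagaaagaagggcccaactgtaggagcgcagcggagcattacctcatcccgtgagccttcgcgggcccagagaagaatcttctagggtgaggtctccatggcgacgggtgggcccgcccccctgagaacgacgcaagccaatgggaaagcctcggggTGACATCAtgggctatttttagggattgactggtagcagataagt
Junb: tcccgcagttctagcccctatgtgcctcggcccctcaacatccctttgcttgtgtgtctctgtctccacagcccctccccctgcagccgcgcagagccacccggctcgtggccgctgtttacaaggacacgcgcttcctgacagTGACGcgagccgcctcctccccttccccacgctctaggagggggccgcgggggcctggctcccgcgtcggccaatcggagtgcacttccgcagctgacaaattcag
Batf: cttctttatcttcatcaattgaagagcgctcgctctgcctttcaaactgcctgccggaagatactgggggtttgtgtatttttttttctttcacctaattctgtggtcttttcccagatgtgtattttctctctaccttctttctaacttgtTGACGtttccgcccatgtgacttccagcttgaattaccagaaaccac

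The motifs searched on both strands of the 250 bases before the RefSeq start were TGACTCA, the classical AP-1 element, TGACGTCA, the cyclic AMP response element, TGACATCA, TGACG and the TATA box motif TATAAA. The short motif TGACG is also the first part of TGACGTCA, so matches to these 2 motifs can overlap. The Jun promoter held TGACATCA, with its first base 45 bases before the start. The Fos promoter held TGACG at 129 and 66 bases and TATAAA at 33 bases before the start. TGACG was also in the Junb promoter, 106 bases before the start, and in the Batf promoter, 98 bases before it. A Fosb match to TGACG lay 60 bases before the start, so 4 of the 8 matched genes held TGACG. Among all 32851 RefSeq promoters of the same length, 17.8% held TGACG, 2.93% TGACATCA and 12.4% TATAAA. None of the 8 held TGACTCA or TGACGTCA, which were in 4.46% and 1.55% of all promoters. These matches describe the letters in 1 window. For Jund, Fosl2 and Batf3 the RefSeq start lay 1210, 671 and 567 bases from the M21 start, so their windows differ from those of the counted genes.

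The Jun subfamily was the most abundant, and Jund was its highest member. Jund, a Jun protein expressed in many resting cells (ENSMUSG00000071076.6, mm10 chr8:70698949-70700616), had 632, 689 and 689.8 TPM in libraries 1, 2 and 3, a mean of 670.4 ± 33.3 TPM (SD, n = 3). This placed it at rank 157 of 22028 protein-coding genes. Junb (ENSMUSG00000052837.6, chr8:84974484-84978718) had 463, 506 and 585 TPM, a mean of 518 ± 61.9 TPM and rank 212. The libraries kept 1 order for Junb, with library 3 highest and library 1 lowest. Jun, the founding member, which encodes c-Jun (ENSMUSG00000052684.4, chr4:95049034-95052222), had 79.4, 82.8 and 115 TPM, a mean of 92.4 ± 19.6 TPM and rank 2012. Jund made up 52.5% ± 2.45 of the subfamily's TPM, Junb 40.4% ± 1.49 and Jun 7.17% ± 0.965 (SD, n = 3). The shares of Jund and Junb did not overlap in any library.

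Within the Fos subfamily only Fos was above 10 TPM. Fos, which encodes c-Fos (ENSMUSG00000021250.13, chr12:85473890-85477273), had 24.1, 30.3 and 49.5 TPM in libraries 1, 2 and 3, a mean of 34.6 ± 13.3 TPM and rank 4945. Library 3 was the highest for Fos and library 1 the lowest. Fosb, an immediate early gene like Fos (ENSMUSG00000003545.3, chr7:19302696-19310051), had 1.48, 2.78 and 1.66 TPM, from 117, 192 and 138 expected counts. Fosl2, which encodes Fra-2 and is known as a regulator of Th17 cells (ENSMUSG00000029135.10, chr5:32135801-32157842), had 2.24, 0.48 and 1.49 TPM from 280, 44 and 173 counts. Fosb was therefore highest in library 2, where Fosl2 was lowest. Fosl1, which encodes Fra-1 (ENSMUSG00000024912.6, chr19:5447547-5455946), had no expected count in any library, and the authors' upper bounds of its posterior mean TPM were 0.588, 0.658 and 0.541. Fos took 90.3% ± 3.70 of the subfamily's TPM, Fosb 5.59% ± 2.58 and Fosl2 4.11% ± 3.50.

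In the Batf subfamily nearly all transcripts came from Batf. Batf (ENSMUSG00000034266.6, chr12:85686669-85709087) had 314, 205 and 232 TPM in libraries 1, 2 and 3, a mean of 251 ± 56.7 TPM and rank 552 of 22028 protein-coding genes. Library 1 was the highest and library 2 the lowest. Batf3, known for its role in the development of cross-presenting dendritic cells (ENSMUSG00000026630.9, chr1:191097847-191108945), had 0.54, 1.07 and 0.12 TPM from 9, 13 and 3 counts. Batf2, known as an interferon-induced gene of macrophages (ENSMUSG00000039699.14, chr19:6140983-6172476), had 1 count in each library, or 0.05, 0.03 and 0.03 TPM. Markers of dendritic cells summed to 7.93, 4.38 and 2.64 TPM in libraries 1, 2 and 3, and 1 of the 6, Zbtb46, was detected in all 3. Batf took 99.7% ± 0.243 of the subfamily's TPM.

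**Figure D1:**
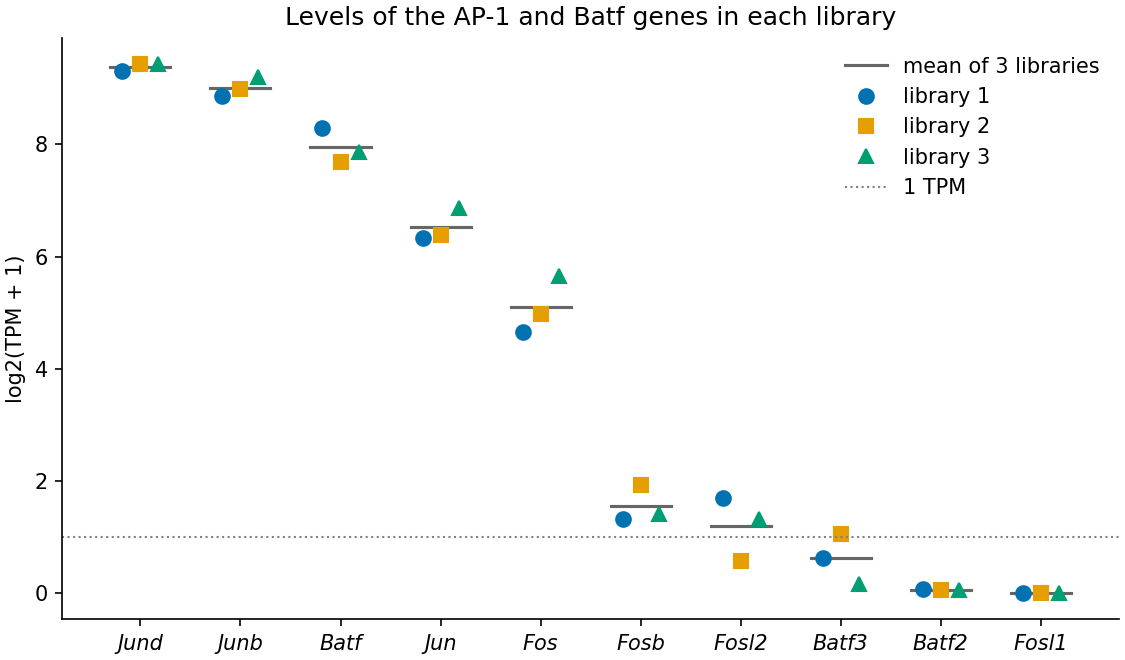
Level of each of the 10 genes in the 3 libraries on a log2(TPM + 1) scale, with points for libraries and a line at their mean. Jund, Junb, Batf and Jun lie above 50 TPM in every library, Fos between 24.1 and 49.5 TPM, and the other 5 genes at or below 2.78 TPM.

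A gene was called detected at 1 TPM or more in all 3 libraries. By that rule 6 of the 10 genes were detected, against 47.6% of protein-coding genes and 23.2% of all M21 genes. Fosl2 reached 1 TPM in 2 libraries and Batf3 in 1, and Fosl2 was detected when library 2 was left out. The median of the 10 mean levels was 18.3 TPM, against 1.04 TPM over all protein-coding genes. That median hides a gap: 4 genes lay above 50 TPM, Fos at 34.6 TPM, and none of the rest above a mean of 1.97 TPM.

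Set in order of mean TPM, the genes ran Jund, Junb, Batf, Jun, Fos, Fosb, Fosl2, Batf3, Batf2, Fosl1. Neighbours were called apart where all libraries gave the log2(TPM + 1) difference the same sign, and neither the ranges over libraries nor the authors' bounds within any library overlapped. Of the 9 neighbouring pairs 5 were apart. Jund was 1.29 times Junb in mean TPM (log2 difference 0.38 ± 0.12), Junb was 2.07 times Batf (1.06 ± 0.44) and Batf was 2.71 times Jun (1.43 ± 0.49). Jun was in turn 2.67 times Fos (1.43 ± 0.24), and Fos was 17.5 times Fosb (3.54 ± 0.63). The step below Fos was thus the widest in the order. For all 5 pairs the exact sign-flip permutation p, two-sided, was 0.25, below which 3 libraries cannot go.

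The 4 lower neighbours were not apart. Fosb exceeded Fosl2 by 0.35 ± 0.90 on the log2(TPM + 1) scale (exact sign-flip permutation p = 0.75), and by -0.15 without library 2. Fosl2 exceeded Batf3 by 0.58 ± 0.92 (exact permutation p = 0.50), and this pair was apart at 1.11 without library 2. Batf3 against Batf2 and Batf2 against Fosl1 differed by 0.56 ± 0.44 and 0.05 ± 0.02. The order among these 5 genes is therefore not settled by the spread between libraries. The order at the top also rests on the table of counts, since in the authors' M4 counts per kilobase Junb was above Jund, as given below.

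Summed over subfamilies, Jun genes had 1174, 1279 and 1389.8 TPM in libraries 1, 2 and 3, a mean of 1280.9 ± 108 TPM (SD, n = 3). Fos genes summed to 27.8, 33.5 and 52.6 TPM and Batf genes to 315, 206 and 232 TPM. Jun transcripts thus exceeded Fos transcripts 42.3, 38.1 and 26.4 times and Batf transcripts 3.73, 6.19 and 5.98 times. Batf transcripts exceeded Fos transcripts 11.3, 6.16 and 4.42 times. Each ratio kept its direction in all 3 libraries, while its size changed most for Batf over Fos.

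The 3 libraries were then compared with each other. Expected counts were converted with edgeR's TMM scaling (a trimmed mean of log ratios between libraries) to CPM, counts relative to a fixed library total, and a chi-square test asked whether a gene varied by more than Poisson counting noise. Of 18253 genes with a mean count of 10 or more, 14052 were called at an adjusted p of 0.05, which is 77%. All 7 family genes with enough counts were called, a count to be read against that share, and Fosl1, Batf2 and Batf3 were too low to test. With a further condition that the highest library exceed the lowest by at least 1.5 times, 5 of the 7 were called (Jun, Fos, Fosb, Fosl2 and Batf), against 36.5% of all genes tested. The count was 3 without any 1 of the libraries 1, 2 or 3. Among 6731 genes with a mean count of 1000 or more, where counting noise is small, 84.3% were called and 3.34% met both conditions. Of the 5 family genes in that range, 3 met them (Fos, Jun and Batf), with Jun and Batf just past 1.5 and Junb below it.

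Among the 5 family genes with a mean count of 1000 or more, Fos had the largest ratio between libraries. Fos had 26.2, 33.5 and 61.9 scaled CPM in libraries 1, 2 and 3, a ratio of 2.36 between the highest and the lowest (chi-square, adjusted p = 7.98e-135). Its coefficient of variation was 46.5%, against 2.65% from Poisson counting alone. In edgeR, which draws the value of a gene towards that of genes of like abundance, the coefficient of variation of Fos was 0.279. For genes of like abundance it was 0.138. Fos was highest in library 3, which also held the salivary gland transcripts. Epithelial markers, of which 1 of 4 was detected, summed to 35.9, 26.8 and 45.1 TPM. With the gland markers left out of the TMM scaling the log2 ratio for Fos was 1.24, against 1.24 with them in. The value could hardly change, since TMM already trims genes of extreme ratio. The part of gland or epithelial RNA itself in the Fos difference was not tested.

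Jun, Junb and Jund followed the same direction as Fos, with smaller ratios. Jun had 151, 159 and 237 scaled CPM, a ratio of 1.57 (chi-square, adjusted p = 2.23e-189). Junb had 494, 543 and 674 scaled CPM, a ratio of 1.36 (adjusted p = 2.13e-236), and Jund 622, 683 and 734 scaled CPM, a ratio of 1.18 (adjusted p = 5.49e-72). In edgeR the coefficient of variation was 0.188 for Junb and 0.175 for Jund, below the 0.201 and 0.208 of genes of like abundance. For Jun it was 0.185, against 0.141. Library 3 was highest and library 1 lowest for all 4 of these genes in the M21 counts. In the authors' M4 counts Jun and Fos were again highest in library 3, but Junb and Jund were highest in library 2, with log2 ratios of library 3 over library 1 of -0.0081 and -0.027, and Jund was not called. Over all genes tested, 23.2% were called with library 3 highest, and 10.7% were called so with a ratio of at least 1.5. The median log2 ratio over all genes tested was 0.02 for library 1 over library 2 and -0.01 for library 2 over library 3.

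Batf ran in another order. It had 163, 106 and 130 scaled CPM in libraries 1, 2 and 3, a ratio of 1.53 (chi-square, adjusted p = 4.05e-87). Library 1 was highest and library 2 lowest, and 14.3% of all genes tested were called with a ratio of at least 1.5 and library 1 highest. The difference was not called in the authors' M4 counts, where Batf had 804, 702 and 780 counts and a scaled ratio of 1.05 (chi-square, adjusted p = 0.626). These M4 counts were 13.6%, 20.8% and 16.3% of the M21 counts. B cell markers, of which 3 of 4 were detected, summed to 24.8, 29.3 and 25.0 TPM and so were lowest where Batf was highest. The sum of dendritic cell markers given above was highest in library 1 through Zbtb46, which had 7.09, 3.75 and 1.79 TPM, while each of the other 5 stayed at or below 0.56 TPM and they had no common order. The part of such cells in the Batf difference was not tested.

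Fosb and Fosl2, counted between 44 and 280 times per library, had opposite extremes in library 2. Fosl2 had 7.71, 1.39 and 4.72 scaled CPM, a ratio of 5.56 (chi-square, adjusted p = 2.16e-30). Fosb had 3.22, 6.05 and 3.76 scaled CPM, a ratio of 1.88 (adjusted p = 7.90e-08), and 11.4% of all genes tested were called with such a ratio and library 2 highest. For Fosb the pair of libraries 1 and 3 alone did not differ beyond counting noise (log2 ratio -0.22, adjusted p = 0.309). In edgeR the coefficient of variation of Fosl2 was 0.534, against 0.360 for genes of like abundance, and that of Fosb was 0.353, against 0.369.

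**Figure D2:**
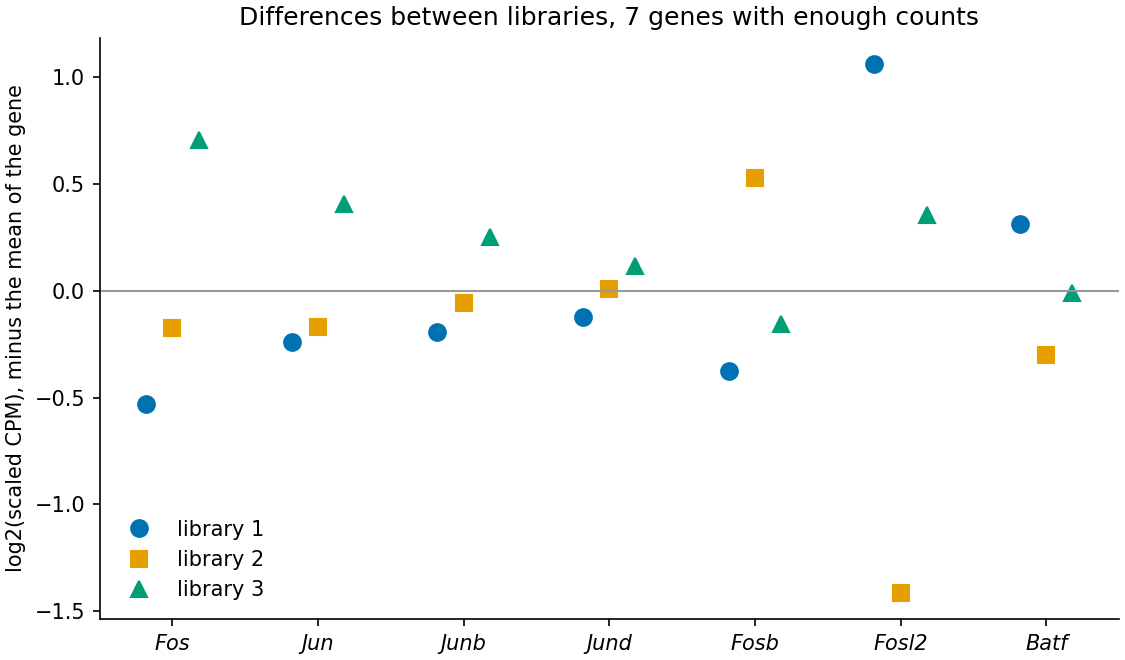
Scaled CPM of the 7 genes with a mean count of 10 or more on a log2 scale, each minus the mean of its own 3 libraries, with 1 point per library. Library 3 is the highest point for Fos, Jun, Junb and Jund, library 1 for Batf and Fosl2, and library 2 for Fosb.

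The deposited transcript tables divide each gene's TPM among its annotated transcripts. For Batf the protein-coding transcript of 955 bases took 87.4%, 86.2% and 87.5% in libraries 1, 2 and 3 (mean 87.0% ± 0.736). The rest was a retained-intron transcript of 532 bases. This division hardly moved while the level of Batf differed 1.53 times between libraries. Junb was 99.5% protein-coding, and Jun and Jund have 1 annotated transcript each.

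The division was less even for the Fos genes. The coding transcript of 2108 bases took 79.8%, 81.2% and 88.2% of Fos TPM in libraries 1, 2 and 3, and a processed transcript of 795 bases the rest. The coding transcript had 19.2, 24.6 and 43.7 TPM, whereas the processed one had 4.86, 5.69 and 5.83 TPM, so the higher level of library 3 lay in the coding transcript. For Fosb a retained-intron transcript of 3629 bases led, with 84.1%, 59.0% and 71.5%. Coding Fosb transcripts reached only 0.24, 1.14 and 0.48 TPM, so coding Fosb passed 1 TPM in library 2 alone. For Fosl2 the coding transcript of 6537 bases took 73.5%, 43.3% and 48.0% of TPM, from 235, 26.0 and 112 counts. The single Batf2 count fell on a different transcript in each library, and coding Batf3 had counts in library 1 alone, at 43.6% of the gene's TPM. These divisions are model estimates, and those of Fosb, Fosl2 and Batf3 rest on few counts.

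**Figure D3:**
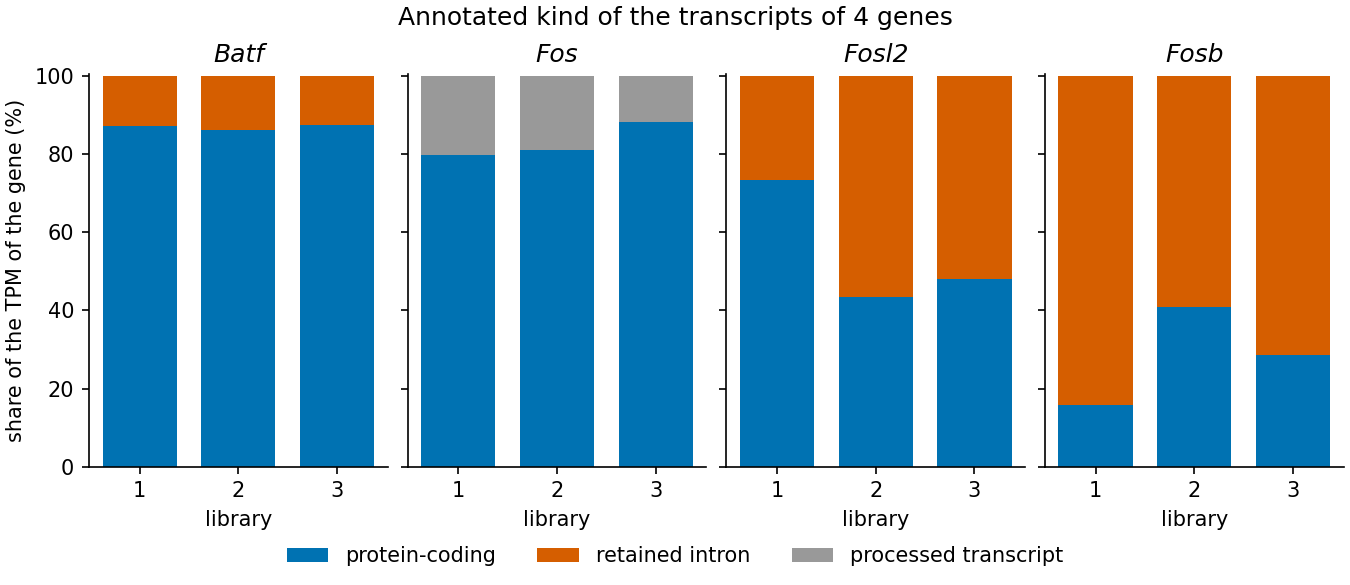
Share of the gene's TPM in protein-coding, retained-intron and processed transcripts, in percent, for Batf, Fos, Fosl2 and Fosb in libraries 1 to 3. Protein-coding transcripts lead for Batf and Fos in every library, and retained-intron transcripts lead for Fosb in every library.

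Some of the genes share bases with neighbours on the other strand, and no source used here says whether the counting used strand. The antisense gene Gm11175 lies over 919 bases of Jund and had 1073, 1018 and 1538 expected counts in libraries 1, 2 and 3, so reads of this pair cannot be told apart without strand. Prdx2, a peroxiredoxin gene, shares 351 bases with Junb and had 161 ± 3.26 TPM. Junos, antisense to Jun over 689 bases, had at most 17.6 counts. Ccdc85b shares 2767 bases with Fosl1 and had 1074, 809 and 1078 counts.

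The authors' whole-number counts on annotation M4 gave another view of the same libraries. In them Fosl1 had 22, 7 and 1 counts, against none in the M21 tables, and Gm11175 had none. M4 counts were a smaller part of the M21 counts for highly counted genes: the median was 51.7% for genes of 100 to 1000 counts, 41.5% for those of 1000 to 10000, and 13.2% for 577 genes above. Jund stood at 4.10%, 4.20% and 3.43%, Junb at 11.9%, 12.3% and 8.73%, and Fos at 55.4%, 57.3% and 45.1%. M4 counts thus level off towards abundant genes, and Jund had the smallest M4 share of the 3 genes. As CPM per kilobase, Junb was first in M4 at 125 ± 5.94, then Batf at 88.9 ± 2.51, Jund at 58.0 ± 2.70, Jun at 48.8 ± 4.23 and Fos at 39.6 ± 12.0. Fos again differed between libraries in M4, with 527, 610 and 1023 counts and a ratio of 1.91 (chi-square, adjusted p = 8.78e-35). Jun did so with a ratio of 1.19 (chi-square, adjusted p = 3.58e-05). Fosl2, with 41, 3 and 28 M4 counts, had a ratio of 12.5 (adjusted p = 4.48e-06). Fosl1 had a ratio of 22.3 (adjusted p = 5.94e-05), and both were highest in library 1. The size of these 2 ratios rests on 3 counts of Fosl2 in library 2 and 1 count of Fosl1 in library 3. Jund (adjusted p = 0.209) and Fosb (adjusted p = 0.0723) were not called, and Junb was highest in library 2 with a ratio of 1.09 (adjusted p = 0.0216).

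Fos and Batf lie on the same strand of chromosome 12, 209 kb apart. Between them M21 places 4 genes, of which Jdp2, a bZIP repressor that pairs with Jun proteins, had 8.26, 5.60 and 7.52 TPM in libraries 1, 2 and 3. Gm47863 had at most 0.63 TPM, Gm32296 had 0.13, 0 and 0 TPM, and Gm33312 had none. Jdp2 thus lay below both flanking genes. In scaled CPM it was lowest in library 2, as Batf was, and differed by a log2 ratio of -0.0008 between libraries 1 and 3, where Batf differed by 0.32.

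Factors that bind with Batf and AP-1 at composite elements were all detected. Ets1, a lymphoid ETS factor, had 765 ± 39.1 TPM, above Jund. Nfatc1, a calcium-regulated partner of Fos and Jun, had 237 ± 4.35 TPM, Nfatc3 111 ± 10.9 TPM and Nfatc2 60.1 ± 2.92 TPM. Irf4, the partner of Batf in T cells, had 17.25, 21.01 and 21.56 TPM (mean 19.9 ± 2.35), and its relative Irf8 had 45.2 ± 6.66 TPM. Runx1 had 62.0 ± 6.63 TPM. Of these 7 genes 6 were called different between libraries, against 77% of all genes, and none had a ratio of 1.5 or more, against 36.5%. All 7 averaged more than 1000 counts, and among all genes averaging 1000 or more the shares were 84.3% and 3.34%. Irf4 was lowest in library 1, where Batf was highest.

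Of 28 other bZIP genes, 23 were detected, with a median of 28.9 TPM. The highest were Xbp1, of the unfolded protein response, at 130 TPM, Atf4, of the amino acid response, at 86.3 TPM, Atf2, a partner of Jun, at 68.3 TPM, and Creb1 at 57.0 TPM. Cebpd, at 0.337 TPM, was among the lowest. None of the 28 reached the mean level of Batf. Of 27 tested, 22 were called and 8 were called with a ratio of at least 1.5, near the 77% and 36.5% of all genes tested. Among genes averaging 1000 counts or more, as many of these did, the shares were 84.3% and 3.34%.

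The MAP kinase cascade phosphorylates and induces AP-1 factors. Of 21 genes of the cascade 19 were detected, with a median of 36.3 TPM. Among the highest were the kinase kinases Map2k2 at 150.1 TPM and Map2k1 at 80.9 TPM. The Jnk gene Mapk10 had 0.227 TPM and the p38 gene Mapk13 0.237 TPM. Of 19 tested 15 were called, against 77% of all genes, and 1 was called with a ratio of at least 1.5, against 36.5%. All 17 genes of AP-1 turnover and co-regulation were detected, with a median of 37.8 TPM. Among the highest were the corepressor Ncor1 at 339 TPM, Cops5 (also known as Jab1, a Jun-binding subunit of the COP9 signalosome) at 82.7 TPM and the ubiquitin ligase Cop1 at 81.4 TPM. Elk1, at 9.02 TPM, was the lowest, and 15 of the 17 were called, none with a ratio of 1.5 or more, against the same 77% and 36.5%. Most genes of both lists averaged 1000 counts or more, where the shares over all genes were 84.3% and 3.34%.

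Immediate early and stress genes outside the family had their highest level in library 3 in 14 of 18 cases, as Fos and the Jun genes did, against 30.5% of all genes tested. Some of these 14 were near ties or not called. Klf6 differed by a log2 ratio of -0.0009 for library 2 over library 3, and Btg2 was not called (chi-square, adjusted p = 0.0511). Of the other genes, Egr1, Nr4a1 and Dusp2 were highest in library 1 and Myc in library 2. Klf6, Btg2, Egr1, Nr4a1 and Myc were named after their values were seen. Library 2 was lowest for 9 of the 18, and library 1, the lowest for Fos and the Jun genes, for 8. This list, too, was written with earlier results of these libraries known and is no independent evidence of a direction. Of the 18 genes 17 were called, against 77% of all genes tested, and 7 were called with a ratio of at least 1.5, against 36.5%. Most of the 18 averaged 1000 counts or more, where 84.3% of genes were called and 3.34% met both conditions. Of the 7 genes, 6 had library 3 highest, against 1961 of all 6658 genes called with such a ratio. All 8 salivary gland markers and all 4 epithelial markers were also highest in library 3, and their part in this pattern was not tested. The median log2 ratio was -0.23 for library 1 over library 3 and -0.30 for library 2 over library 3. Dusp2 at 290.4 TPM and Dusp1 at 263 TPM, phosphatases that switch off MAP kinases, led the list, followed by the heat shock gene Hspa1b at 223 TPM and Ier2 at 188 TPM. Nr4a2 at 6.13 TPM and Egr3 at 8.63 TPM were the lowest.

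Genes linked to Batf in effector Tregs mostly had their highest level in library 1 and their lowest in library 2, as Batf did in the M21 counts. In M4 counts the difference of Batf was not called, and the listed genes were not examined there. All 18 were detected and called, against 77% of all genes tested called, and 8 were called with a ratio of at least 1.5, against 36.5%. Most of the 18 averaged 1000 counts or more, where 84.3% of genes were called and 3.34% met both conditions. Library 1 was highest for 13 of the 18, against 33.7% of all genes tested, and library 2 was lowest for 16, against 39.5%. Some of the 13 were near ties between libraries 1 and 3. The log2 ratio of library 1 over library 3 was 8.37e-06 for Tnfrsf4 and 0.0079 for Tnfrsf9, against 0.32 for Batf. The median log2 ratio was 0.50 for library 1 over library 2, 0.07 for library 1 over library 3 and -0.42 for library 2 over library 3. The highest were the costimulatory receptors Tnfrsf4 at 931 TPM, Tnfrsf18 at 847 TPM and Tnfrsf9 at 299 TPM, and the inhibitory receptor Ctla4 at 281 TPM. The lowest were the cytokine gene Il10, with 8.59, 2.78 and 17.1 TPM, and Areg, a growth factor of tissue Tregs, with 14.1, 6.18 and 8.58 TPM. The list was written with earlier results of these libraries known and is no independent evidence of a direction.

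**Figure D4:**
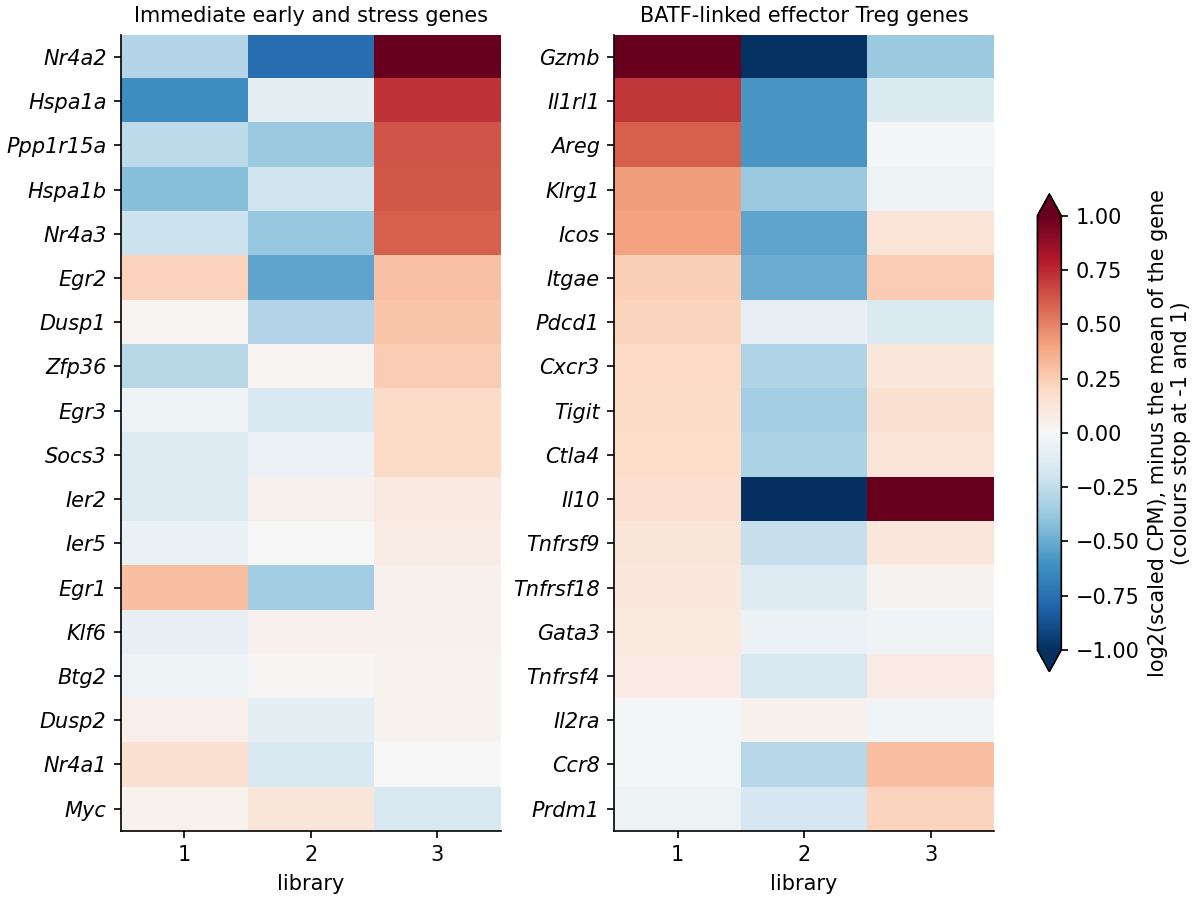
Scaled CPM on a log2 scale minus the mean of each gene, for 18 immediate early and stress genes (left) and 18 Batf-linked effector Treg genes (right), with 1 column per library and colours that stop at -1 and 1. Library 3 is highest for 14 of the 18 genes on the left, and library 1 for 13 of the 18 on the right, some of them near ties.

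The likeness of other genes to Batf and to Fos was measured as the Euclidean distance between log2 CPM profiles over the 3 libraries, each centred on its own mean, among 8474 genes averaging 500 counts or more. For Batf the nearest were Noc3l at 0.0152, Prim1 at 0.0284, Samsn1 at 0.0311 and Csprs at 0.0372. In total 53 genes lay within 0.1 of Batf. For Fos the nearest were the heat shock genes Hspa1a at 0.120 and Hspa1b at 0.139, then Eif2ak3 at 0.275 and Myo6 at 0.292, and no gene lay within 0.1. Hspa1a had 29.7, 42.5 and 69.7 TPM and Hspa1b 164, 190.4 and 314 TPM in libraries 1, 2 and 3, and these near-identical copies may share reads. Fewer genes thus lay near Fos than near Batf, over 3 points that share their libraries and depth. Profiles were not scaled to equal size, so the number of genes near a profile also depends on its ratio between libraries. That ratio was 2.36 for Fos and 1.53 for Batf, so the contrast is no separate result on likeness.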

How the data were processed

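Polyadenylated RNA of 3 libraries of 1 biosample was sequenced. The deposited M21 tables hold expected counts, TPM and posterior mean TPM with bounds, and the transcript tables the percent of a gene's TPM per transcript, per the file headers. The level of the bounds is not stated. Whole-number counts on M4 were also deposited. Aligner, counting program and strand setting are not given in the sources used here. TPM shares 1 total, so abundant gland transcripts in library 3 lower the TPM of its other genes.

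Expected counts were rounded and TMM-scaled in edgeR 4.0.16 (R 4.3.3). Rows of transfer RNAs and spike-ins stayed out of library sizes and tests, with 0.170%, 0.170% and 0.218% of counts. Genes averaging 10 or more counts were tested by chi-square against Poisson counting, with Benjamini-Hochberg adjustment over all genes at 0.05, after a test on simulated data. The test compares libraries, not conditions. Dispersions came from an intercept-only edgeR fit. Neighbouring levels were compared as log2(TPM + 1) by an exact sign-flip test. DESeq2 1.42.0 size factors served as an alternative. Remaining work was done in Python 3.11.15 with scipy 1.17.1, numpy 2.4.6, pandas 2.3.3 and matplotlib 3.10.9. All family genes are named. Of other lists the 4 highest and 2 lowest by mean TPM are named, all members of the composite partner and Treg identity lists, and the 4 genes nearest in profile. Zbtb46, Cd14, Fcgr1, Lyz2, Cd8b1, overlapping genes and genes between Fos and Batf were named after their values were seen. A few genes covered by this rule are not reported here. Cyr61 was not found under that symbol. Members and lists were chosen with earlier results of these data known.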

Additional observations from a re-analysis of the deposited data

How the results depend on the processing

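Of 232 alternative values for 54 results, 198 were rated the same. Ratios and differences had to keep their direction and call, and levels and shares had to stay within the SD. Counts of genes or pairs and coefficients of variation only had to lie within 1.5 times of the main value. These 198 include 30 levels and 45 shares with 1 library left out, which carry no information. Leaving out 1 of 3 libraries cannot move a mean by more than the SD, which was the limit for these values. Genes called different numbered 14057 with DESeq2 size factors, 19459 of 38814 with no filter, 6254 of 12056 in M4 counts, and 9218 to 10994 with 1 library left out, lowest without library 2, against 14052. Family genes with a ratio of at least 1.5 numbered 3 in M4 counts and 3 without any 1 library. The common coefficient of variation was 0.396, and 0.233 for genes averaging 50 counts or more and 0.208 in M4 counts. The log2 ratios of the highest over the lowest library turned to -0.0081 for Junb and -0.027 for Jund in M4 counts, and were 0.95 for Fosb and 0.07 for Batf, no longer called. Per kilobase in M4, Jund minus Junb was -1.09, Fosl2 minus Batf3 -0.0082 and Batf2 minus Fosl1 -0.95, and Jun minus Fos was 0.33, no longer apart. Without length correction Batf minus Jun was -0.44 and Jund minus Junb 0.26. Fosb minus Fosl2 ran between -0.145 and 0.724 with 1 library left out. The cause of these shifts was not tested. M4 counts level off for abundant genes, and counts of Fosb, Fosl2, Batf2 and Batf3 limit their precision. Bounds and intervals cover counting error only. No paired analysis was possible because all libraries form 1 group.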
